A study of Mus musculus with 12 samples.

Results

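The gene expression of p38α∆ MSCs was compared with that of WT MSCs in the absence of TGF-β, on the 6 of the 12 arrays of the series whose cells received none. They are 2 arrays titled KO (numbers 1 and 3), here called p38α∆, and 4 arrays titled CTRO (numbers 1, 3, 4 and 4b), here called WT. The MSCs, mesenchymal stem cells of the bone marrow, came from Mapk14 lox/lox mice with an inducible Cre transgene, and the labels give their background as FVB/NJ, while the study's methods name C57BL/6J for its mice. They had been immortalized by serial passage, so all groups share the Cre transgene, the floxed Mapk14 alleles and the immortalized state. The p38α∆ MSCs had been given 4-hydroxytamoxifen (4-OHT), which activates the Cre recombinase and deletes Mapk14, while the WT MSCs had been given vehicle, so the deletion and the exposure to 4-OHT cannot be told apart. Both were kept in medium with 0.5% serum. The other 6 arrays, 3 WT and 3 p38α∆, are of MSCs that also received 5 ng/ml TGF-β for 20 h. The question was which genes depend on p38α before TGF-β is added. Nothing in the labels shows that the arrays of 1 group came from separate cultures, so p-values measure only the spread between these arrays, which may be technical, and 2 against 4 arrays limit the precision of every value.

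p38α is a stress-activated MAP kinase that upstream kinases switch on by phosphorylation. It passes the signal to kinases such as MK2 and to transcription factors, and thereby shapes the transcription and the stability of mRNAs for cytokines, proteases and immediate early factors. In mesenchymal cells it is also one of the kinases that TGF-β engages beside the Smad proteins.

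Levels are log2 values after RMA, the normalization the authors applied, with 1 probeset per gene for 17097 genes. Differences are p38α∆ minus WT on that scale, estimated in 1 limma fit of all 12 arrays that treats arrays of the same number as related. As a check that does not rest on that fit, the difference was also taken within each number, as p38α∆ 1 minus WT 1 and p38α∆ 3 minus WT 3, called pair 1 and pair 3 below.

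The probesets for Mapk14 did not separate the groups. The brightest of its 6 probesets read 8.95, 9.12, 9.07 and 9.11 in WT 1, 3, 4 and 4b and 9.01 and 9.03 in p38α∆ 1 and 3, and the one used for the gene read 5.29, 5.35, 5.33 and 5.00 against 4.99 and 5.08. Which of them lie in the deleted exons is not given in the sources used here, so the genotype could not be checked from them. Of the MSC markers, Pdgfrb (9.14 ± 0.33 in WT, SD, n = 4, and 9.03 in p38α∆), Itgb1 (9.15 and 9.14), Cd44 (7.81 and 7.79) and Nt5e (6.02 and 6.21) were well above the median of all genes, 4.80, while Thy1 (3.40 and 3.34), Eng (4.58 and 4.58) and Mcam (4.22 and 4.37) lay below it. The leukocyte markers Ptprc, Itgam and Cd3e (2.72 to 3.30 in WT) and the endothelial markers Pecam1, Cdh5, Tie1, Tek and Kdr (3.33 to 3.91 in WT) were low in both genotypes. The osteoblast factor Sp7, in contrast, was at 8.40 and 8.33. Probesets differ in brightness, so these levels do not rank genes against each other.

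The number of an array and the position of WT 4b bear on every result. The arrays numbered 1 stood apart from the others in both genotypes, with a root mean square difference per gene of 0.456 between WT 1 and WT 3 and 0.517 between p38α∆ 1 and p38α∆ 3. Within number 1 the genotypes were closer, at 0.252. In contrast, p38α∆ 3 was 0.242 from WT 3, 0.245 from WT 4 and 0.244 from WT 4b, so the shared number 3 brought it hardly closer. WT 3 and WT 4 differed by 0.168, and WT 4 and WT 4b by 0.169. Control probesets for RNA quality moved along: the 5′ probeset of 18S RNA read 12.30 in WT 1 and 11.97 in p38α∆ 1, and 11.30 in WT 3 and 10.19 in p38α∆ 3, so that it was lower in p38α∆ in both pairs. Its part in the differences below was not tested.

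WT 4b stood on the p38α∆ side of WT 4. Of the 160 genes that were more than 0.5 higher in p38α∆ in both pairs, 110 were also higher in WT 4b than in WT 4 (median 0.12), against 48.1% of all genes. Of the 38 genes that were more than 0.5 lower in both pairs, 34 were lower in WT 4b than in WT 4 (median −0.28), against 51.9% of all genes. None of the arrays that chose these genes is one of the 2 arrays compared. Across all genes, the difference of WT 4b from WT 4 had a correlation of 0.15 with pair 1 and of 0.07 with pair 3, and of 0.37 with the difference of the TGF-β-treated p38α∆ and WT arrays numbered 4. These 4 differences share no array but share the joint normalization, and genes are not independent replicates. The labels give WT 4b as wildtype and it was used as such. Some of the results that turn on it are given with and without it.

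**Figure D1:**
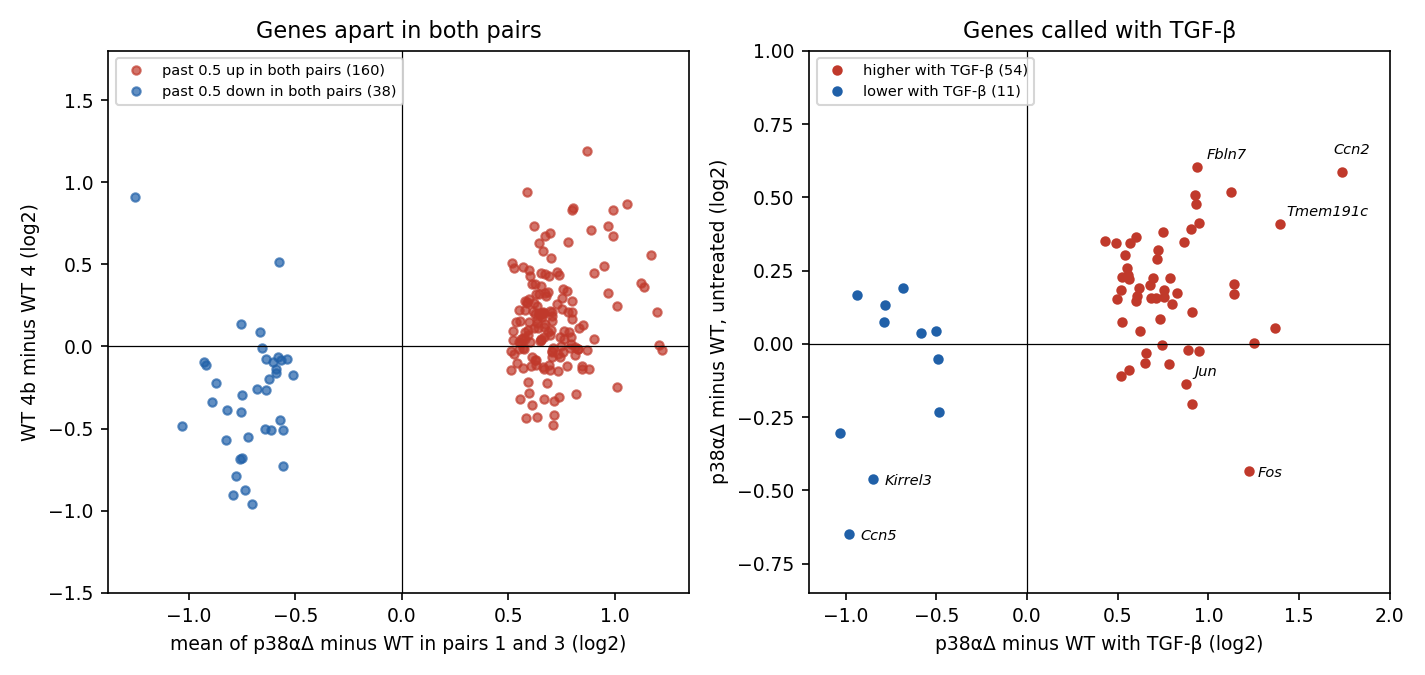
Left, the difference of WT array 4b from WT array 4 (vertical axis, log2) against the mean difference of p38α∆ from WT in pairs 1 and 3 (horizontal axis, log2), for the 160 genes past 0.5 upward and the 38 past 0.5 downward in both pairs; 110 of the first lie above 0 and 34 of the second below. Right, the untreated difference of p38α∆ from WT (vertical axis, log2) against that with TGF-β (horizontal axis, log2) for the 65 genes that passed with TGF-β; 43 of the 54 red points lie above 0.

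Without TGF-β no gene passed between p38α∆ and WT MSCs at an adjusted p under 0.05 in limma (0 of 17097, 0.0%; smallest adjusted p = 0.348, Ehd4). At an unadjusted p under 0.05 were 503 higher genes (2.94%) and 342 lower genes (2.0%), together 4.94% of those tested. Which direction held more genes depended on the setting, with 466 higher and 605 lower without p38α∆ 1 and 414 higher and 400 lower after quantile normalization. Both p38α∆ arrays lay above all 4 WT arrays for 561 genes (3.28%) and below all 4 for 447 (2.61%). Without WT 4b, 3 genes passed, Bglap, Oasl2 and Angpt4. With the 6 untreated arrays alone and each number as its own term, 141 genes passed (0.825%), 116 higher and 25 lower. That fit leaves 2 residual degrees of freedom. Of the 116, 113 were also higher in the TGF-β-treated arrays of other numbers than in those numbered 1, as were 43.1% of all genes. Of the 25, 15 were lower there. Only 29 of the 141 differed by under 0.25 between those arrays. With the 4 arrays of the pairs alone, which leaves 1 residual degree of freedom and was added once the values were known, 239 passed. The difference between p38α∆ and WT was in no gene shown to depend on TGF-β (0 genes in limma's interaction contrast, with 919 at an unadjusted p under 0.05 and a smallest adjusted p = 0.218). This does not show the untreated and treated differences to be alike. Across all genes, pair 1 had correlations of 0.0 and 0.06 with the TGF-β-treated differences of p38α∆ from WT in numbers 1 and 4. Pair 3 had correlations of −0.14 and 0.1 with them.

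Pair 1 and pair 3 share no array, and their differences had a correlation of 0.39 across all genes and of 0.53 across the 8549 genes at or above the median level. More than 0.5 apart in both pairs were 160 genes upward (0.936% of all) and 38 downward (0.222%), against 10 in opposite directions. WT 4 and WT 4b, in comparison, were more than 0.5 apart in 185 genes, where pair 1 was in 909 and pair 3 in 834. Much of the upward group also differed between numbers: 147 of the 160 were higher in the TGF-β-treated arrays of other numbers than in those numbered 1, as were 43.1% of all genes. Restricted to the 8998 genes that differed by under 0.25 between those arrays (a restriction added once the values were known) 22 genes were past 0.5 upward, 24 downward and 2 in opposite directions.

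**Figure D2:**
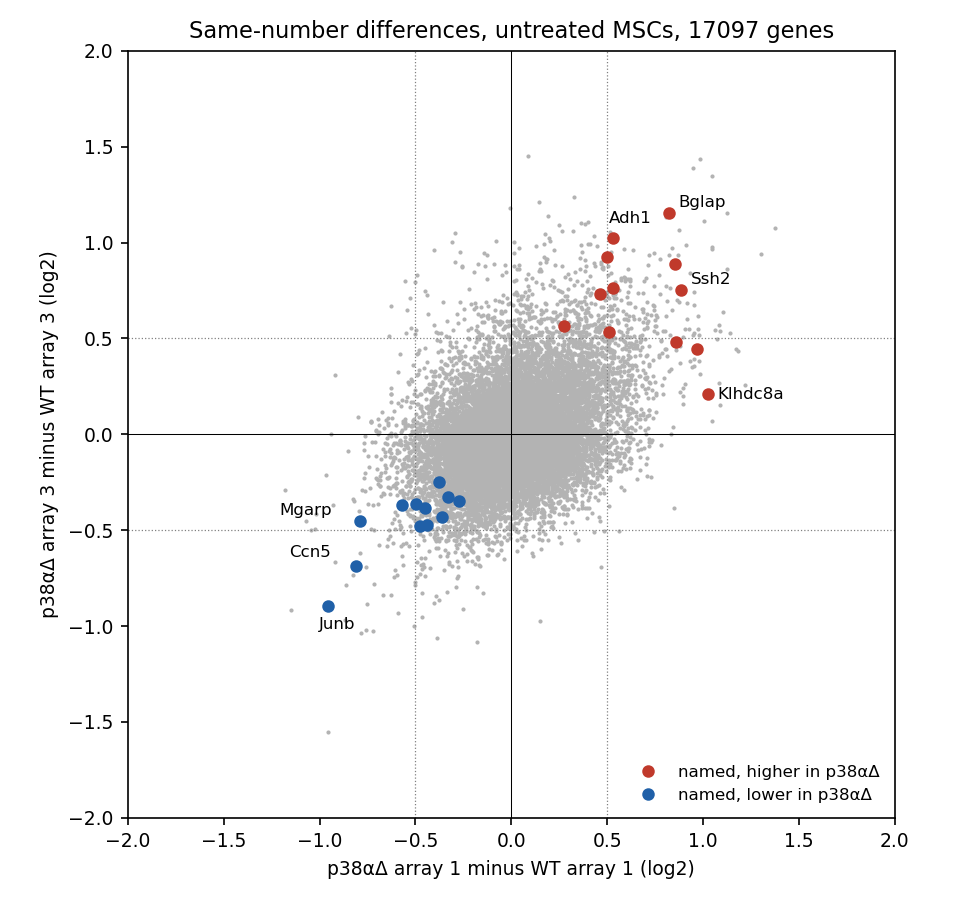
Difference of p38α∆ from WT in pair 1 (horizontal axis, log2) and in pair 3 (vertical axis, log2) for 17097 genes (grey points), with the 12 named genes higher (red) and the 12 lower (blue) in p38α∆ MSCs and dotted lines at ±0.5. The cloud is drawn out along the diagonal, with 160 genes in the upper right corner beyond the dotted lines and 38 in the lower left.

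Genes were first kept whose mean level over all 12 arrays, the TGF-β-treated ones included, was at or above the median. Of these, 53 higher and 13 lower genes met all further rules. The rules were both p38α∆ arrays beyond all 4 WT arrays, an unadjusted p under 0.01 in limma and the same direction in both pairs. The 12 with the largest difference in each direction are described here; they were picked for these values, so the values are a description, and none passed the adjusted threshold with all arrays. Bglap, which encodes osteocalcin, a secreted protein of mature osteoblasts, led the higher group. Its level was 6.94, 6.73, 6.67 and 7.34 in WT 1, 3, 4 and 4b and 7.77 and 7.88 in p38α∆ 1 and 3. All WT arrays lay below both p38α∆ arrays, with WT 4b nearest to them. The difference was 0.92 (SE 0.17, adjusted p = 0.927 in limma), and without WT 4b Bglap rose by 1.02 (SE 0.105, adjusted p = 0.0163). Its single probeset may not tell Bglap from its close copies Bglap2 and Bglap3. Other osteoblast and chondrocyte genes were divided: of 19 measured, 2 were higher at an unadjusted p under 0.05 and 2 lower (all genes, 2.94% and 2.0%), with a median of −0.07. Col2a1, the cartilage collagen, was the other higher one (0.36), the lower ones were Acan, the cartilage proteoglycan (−0.27), and Sox5 (−0.26), and Sp7, the factor that drives osteoblast differentiation, differed by −0.10.

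The other 11 higher genes had differences of 0.55 to 0.72. They include Wnt9a, a Wnt ligand of skeletal tissue (0.64, with 0.46 in pair 1 and 0.73 in pair 3), Cdkn1c, an inhibitor of the cell cycle (0.62, 0.53 and 0.76), Gpc6, a cell surface heparan sulfate proteoglycan (0.55, 0.28 and 0.56), Fbln7, a matrix adhesion protein (0.60, 0.97 and 0.45), and Ssh2, a phosphatase that activates the actin-severing protein cofilin (0.70, 0.88 and 0.75). Adh1, which oxidizes alcohols and retinol, differed by 0.71, Gpr85, an orphan receptor, by 0.72, Klhdc8a by 0.63 (1.03 in pair 1 but 0.21 in pair 3) and Tor3a by 0.58. For Ehd4, which acts in endosomal recycling, the WT arrays were closest together, at 6.39, 6.48, 6.36 and 6.46, against 6.90 and 7.01 in p38α∆. The difference was 0.55 (SE 0.08), and WT 4b did not stand apart here. Ccn2 (CTGF), a secreted matrix protein and TGF-β target, was at 3.60, 3.35, 3.68 and 3.96 in WT and 4.10 and 4.28 in p38α∆, a difference of 0.59 (SE 0.19, adjusted p = 0.969) that was 0.50 in pair 1 and 0.93 in pair 3. Its untreated values all lay below the median of all genes, 4.80. It met the level rule only through the TGF-β-treated arrays, where it was at 6.97 to 9.22. Every probeset of these 12 genes had a difference above 0, though 1 of the 4 for Gpc6 was at 0.0015.

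Of the lower genes, Junb, a subunit of the AP-1 transcription factor, showed the largest difference. Its level was 6.79, 6.25, 5.93 and 5.84 in WT 1, 3, 4 and 4b and 5.83 and 5.35 in p38α∆ 1 and 3. WT levels depended on the number, and the lowest WT array, 4b, lay just above p38α∆ 1. The difference was −0.68 (SE 0.21, adjusted p = 0.969), with −0.96 in pair 1 and −0.90 in pair 3. Ccn5 (WISP2), a secreted relative of Ccn2 that lacks one of its domains, read 7.91, 7.81, 7.89 and 7.21 in WT and 7.10 and 7.13 in p38α∆. WT 4b lay with the p38α∆ arrays and the other 3 WT arrays lay 0.69 or more above both. The difference was −0.65 (SE 0.17, adjusted p = 0.969), and without WT 4b it was −0.76 (SE 0.11, adjusted p = 0.0929). The remaining 10 had differences of −0.55 to −0.29. Among them are Mgarp, a protein of mitochondrial transport (−0.55), Ncs1, a neuronal calcium sensor (−0.41), Rrp15 and Yrdc, of ribosomal RNA processing and transfer RNA modification (−0.38 and −0.35), Cpsf4, a subunit of the complex that cleaves pre-mRNA 3′ ends (−0.34), Itgb2, the β2 integrin chain of leukocytes (−0.34), Slc25a25, a mitochondrial ATP carrier (−0.29, with the other of its 2 probesets at 0.0003), and Layn, a hyaluronan receptor (−0.29). Glod4 and Phykpl, both of metabolism, differed by −0.41 and −0.30.

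**Figure D3:**
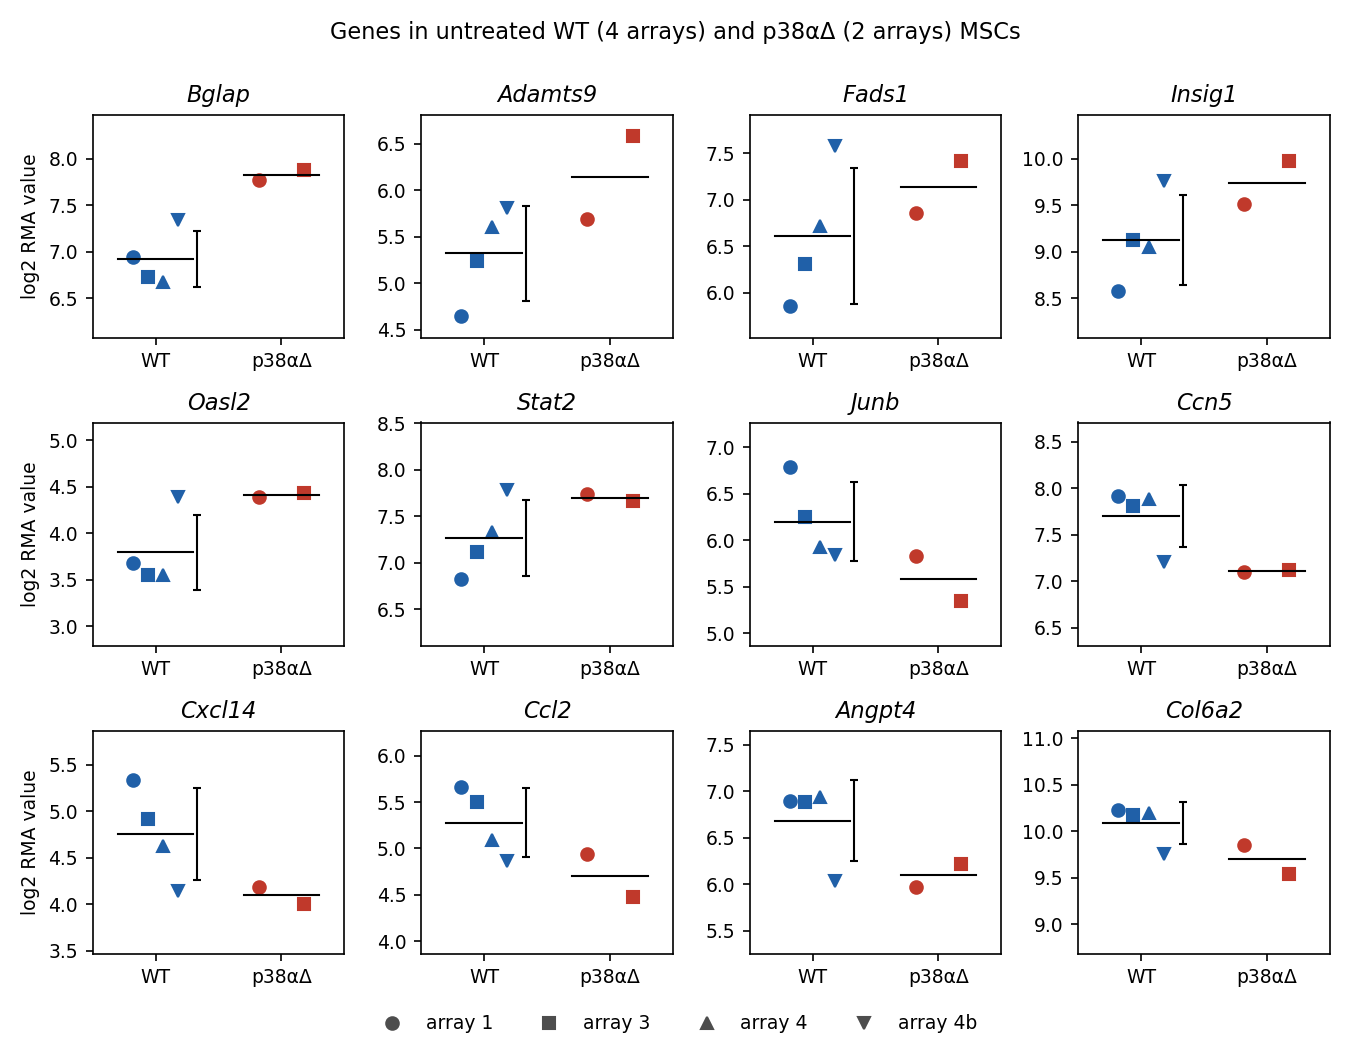
Log2 RMA values (vertical axes, all of equal span) of 12 genes in untreated WT (blue) and p38α∆ (red) MSCs, each array a point whose shape gives its number, a line at the group mean and a bar for the SD of the 4 WT arrays. In Oasl2, Ccn5, Angpt4 and Col6a2 the WT array 4b sits at the level of the p38α∆ arrays.

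The gene lists below were described by counts and medians beside those of all genes. Over all genes, 2.94% were higher and 2.0% lower at an unadjusted p under 0.05 in limma. Without WT 4b, 509 of 17097 were higher and 471 lower. In a bulk sample, fewer cells of a type and less RNA per cell cannot be told apart. Members named in them beyond the rule were chosen after their values were seen. The clearest shift was that of the genes of sterol and fatty acid synthesis, the enzymes that build cholesterol and unsaturated fatty acids and the sensors that control them. Of 23 measured, 20 had a difference above 0 (all genes, 49.8%), 4 were higher at an unadjusted p under 0.05 and none lower, and the median was 0.22 (all genes, −0.0006). It was 0.28 in pair 1 and 0.29 in pair 3, and 4 of the 23 were past 0.5 upward in both. The same genes were also higher in WT 4b than in WT 4, by a median of 0.33, so that without WT 4b the median was 0.29 with 7 higher at an unadjusted p under 0.05.

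Fads1, a desaturase of polyunsaturated fatty acids, was at 5.85, 6.31, 6.71 and 7.58 in WT 1, 3, 4 and 4b and 6.86 and 7.42 in p38α∆ 1 and 3. It was one of 4 genes more than 1 higher in both pairs, though its highest value was that of WT 4b. The difference was 0.78 (SE 0.28, adjusted p = 0.969) and 0.96 without WT 4b. A brighter second probeset of Fads1 differed less, by 0.22 in pair 1 and 0.17 in pair 3. Insig1, which retains the sterol sensor in the endoplasmic reticulum and is itself a sterol-regulated gene, read 8.58, 9.13, 9.05 and 9.76 in WT and 9.51 and 9.97 in p38α∆, a difference of 0.71 (SE 0.22). WT 4b lay between the p38α∆ arrays and above the other WT arrays. Msmo1, a demethylating oxidase of the late cholesterol pathway, differed by 0.68 (0.32 in pair 1 and 1.24 in pair 3) and Dhcr7, the last enzyme of that pathway, by 0.32 (0.34 and 0.29). With TGF-β the median difference of the 23 genes was −0.12.

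The upstream sequence of Msmo1 is shown because that gene carries the elements through which sterol genes are commonly controlled. It covers the 250 bases before the transcription start (RefSeq, build GRCm38.p6, chr8:64733579-64733828, minus strand, written 5′ to 3′ along the gene), with matches to TCACNCCA, a core of the sterol element, and to CCAAT, the box bound by NF-Y, on either strand in capitals.
Msmo1: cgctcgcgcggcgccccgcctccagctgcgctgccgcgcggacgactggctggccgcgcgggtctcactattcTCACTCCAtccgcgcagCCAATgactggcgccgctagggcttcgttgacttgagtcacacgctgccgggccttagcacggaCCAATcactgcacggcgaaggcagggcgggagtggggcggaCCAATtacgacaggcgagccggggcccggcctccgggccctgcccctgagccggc
It holds 1 match to the first, from base −177 to −170 counted from the start, and 3 to the second. Of 19 upstream sequences given for 17 of the 23 genes, 3 (15.8%) hold TCACNCCA and 13 (68.4%) CCAAT, against 3.67% and 33.8% of all 32851. The matches are a description of the letters and not of binding.

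Genes of the interferon response, which antiviral signaling induces, held a few higher members. Of 22 measured, 5 were higher at an unadjusted p under 0.05 and 1 lower (all genes, 2.94% and 2.0%), with a median of 0.03 (all genes, −0.0006) that was 0.14 in pair 1 and 0.04 in pair 3. Oasl2, of the 2′-5′ oligoadenylate synthetase family, was at 3.68, 3.55, 3.55 and 4.39 in WT 1, 3, 4 and 4b and 4.39 and 4.43 in p38α∆ 1 and 3. WT 4b lay at the level of the p38α∆ arrays, apart from the other WT arrays. The difference was 0.70 (SE 0.19, adjusted p = 0.969), and without WT 4b Oasl2 rose by 0.82 (SE 0.09, adjusted p = 0.0163). Stat2, a subunit of the interferon-activated transcription factor, read 6.83, 7.11, 7.34 and 7.79 in WT and 7.74 and 7.66 in p38α∆ (difference 0.58, SE 0.17), with WT 4b the highest of the 6. Ifih1, a sensor of viral RNA, differed by 0.51, Irf9 by 0.38 and Ifit2 by 0.33, while Mx1 differed by −0.27. Over the list, WT 4b was above WT 4 by a median of 0.21. Without WT 4b, 7 were higher and 1 lower at an unadjusted p under 0.05, with a median of 0.08.

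The upstream sequence of Stat2 is shown as that of a member with a match to GAAA followed by any pair of bases and GAAA again, the core of the element that this factor binds (250 bases, GRCm38.p6, chr10:128270248-128270497, plus strand). The match, on either strand, is in capitals.
Stat2: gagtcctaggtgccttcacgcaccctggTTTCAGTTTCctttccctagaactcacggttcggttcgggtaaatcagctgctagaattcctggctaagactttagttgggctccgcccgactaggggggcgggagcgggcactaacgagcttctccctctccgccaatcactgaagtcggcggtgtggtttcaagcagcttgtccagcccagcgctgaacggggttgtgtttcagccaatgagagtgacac
It spans bases −222 to −213. Of 23 upstream sequences for 18 of the 22 genes, 6 (26.1%) hold these letters, against 2.98% of all.

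Genes for inflammatory cytokines and chemokines, whose mRNAs are textbook targets of p38α signaling, held several lower members. Of 27 measured, 6 were lower at an unadjusted p under 0.05 (all genes, 2.0%) and 1 higher (2.94%), and the median was −0.06 (−0.08 in pair 1 and −0.09 in pair 3). Ccl2, the monocyte chemoattractant, was at 5.66, 5.50, 5.09 and 4.87 in WT 1, 3, 4 and 4b and 4.94 and 4.48 in p38α∆ 1 and 3. WT 4b lay between the p38α∆ arrays. The difference was −0.68 (SE 0.19, adjusted p = 0.969), with −0.72 in pair 1 and −1.03 in pair 3. Cxcl14, a chemokine of fibroblasts and epithelia, read 5.33, 4.92, 4.63 and 4.15 in WT and 4.19 and 4.01 in p38α∆ (difference −0.79, SE 0.23, and −0.91 without WT 4b). Tnfaip6 (TSG-6), a hyaluronan-binding anti-inflammatory protein of MSCs, differed by −0.64, the monocyte chemokines Ccl7 and Ccl8 by −0.54 and −0.22, and Ptges, the prostaglandin E synthase, by −0.34. Ccl5 was the higher one, at 0.44. Il6 differed by 0.025.

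**Figure D4:**
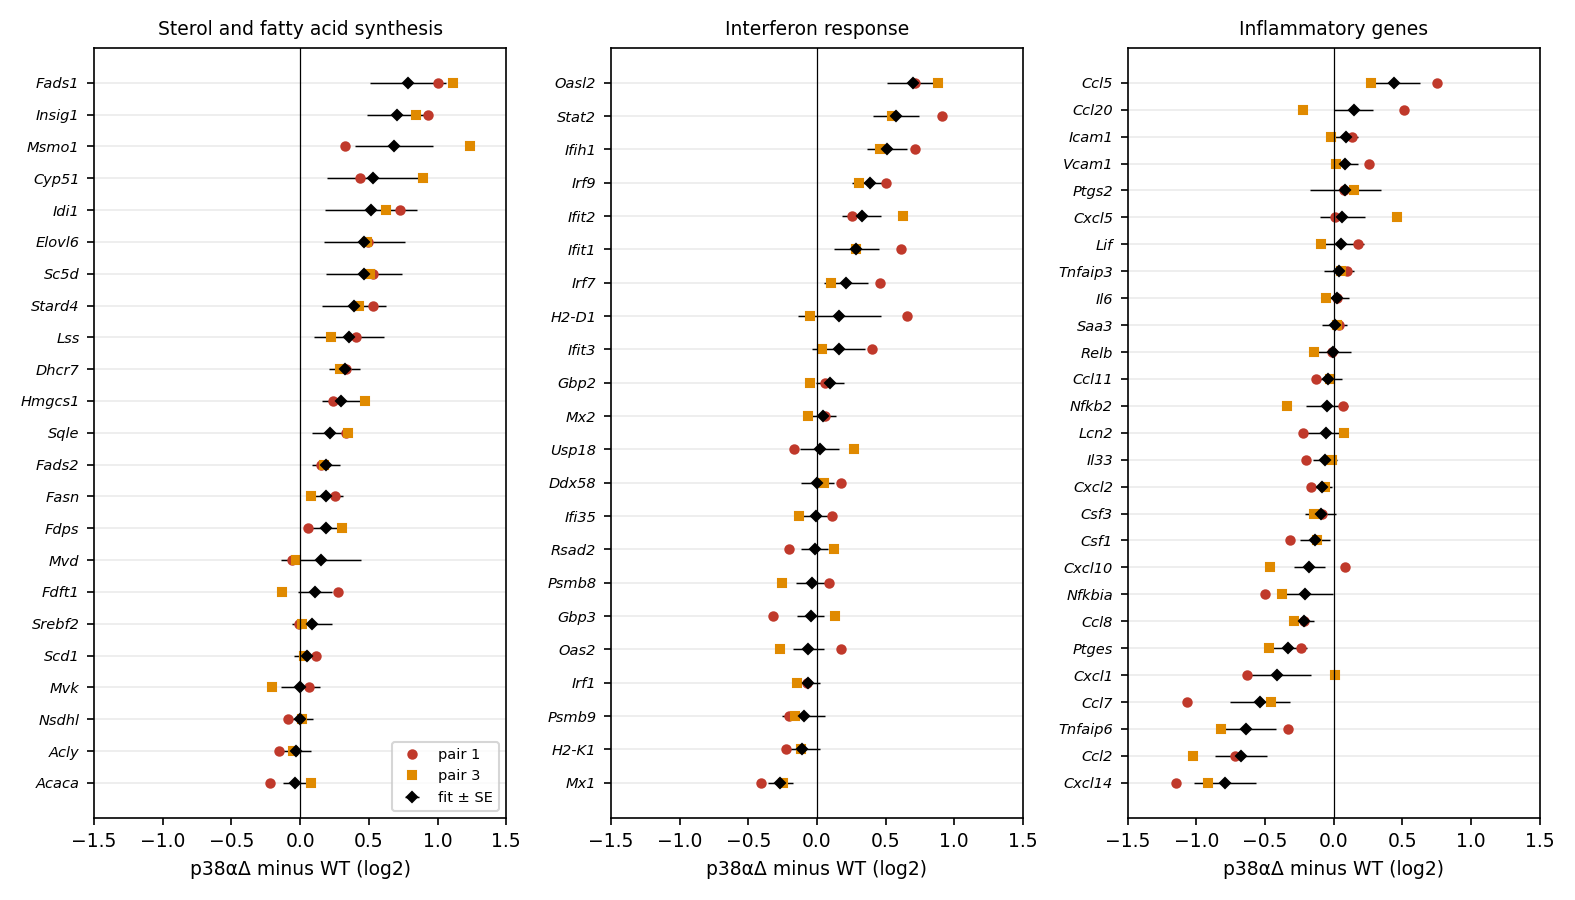
Difference of p38α∆ from WT (horizontal axes, log2) for the measured genes of sterol and fatty acid synthesis (23), of the interferon response (22) and of inflammation (27), with the estimate of the fit and its SE (black), pair 1 (red) and pair 3 (orange). In the first list 20 of 23 estimates lie above 0, in the other 2 lists a few members on one side lie apart from a majority near 0.

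Genes of matrix proteolysis held 5 higher members and 1 lower at an unadjusted p under 0.05 among 28 measured (all genes, 2.94% and 2.0%; median 0.08, with 0.16 in pair 1 and 0.05 in pair 3). Adamts9, an aggrecan- and versican-cleaving protease, was at 4.65, 5.24, 5.60 and 5.81 in WT 1, 3, 4 and 4b and 5.69 and 6.59 in p38α∆ 1 and 3. The groups overlapped, but within both pairs the p38α∆ array was over 1 higher (1.05 and 1.35). The difference was 0.90 (SE 0.26, adjusted p = 0.969), and only the probeset used here showed it. Its group means differed by 0.815, and those of the other 2 probesets, both dimmer, by 0.0017 and 0.034. Adamts5, the main aggrecanase of mouse cartilage, differed by 0.67, Adam12 by 0.62, Plau, the urokinase, by 0.29, and Mmp14, a membrane collagenase, by 0.20, while Mmp19 differed by −0.27. Crebrf, a regulator of the endoplasmic reticulum stress response (1.13 and 1.15), and the noncoding RNA gene Firre (1.37 and 1.08) were the other 2 of the 4 genes more than 1 higher in both pairs. Both also differed between numbers, and their fitted differences of 0.75 and 0.85 had SEs of 0.41 and 0.51. These values are of 1 probeset each. The group means differed by 0.38 for the probeset of Firre used here and by −0.13 to 0.082 for its other 3. For Crebrf they differed by 0.50, and by −0.13 and 0.36 for its other 2. The last of these was also higher in both pairs (0.85 in pair 1 and 0.67 in pair 3). No gene was more than 1 lower in both pairs.

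Genes of glycolysis and hypoxia had the lowest median of the 27 lists, −0.14 (−0.12 in pair 1 and −0.23 in pair 3). Of 25 measured, 4 had a difference above 0 (all genes, 49.8%). At an unadjusted p under 0.05, none was higher and 2 were lower (all genes, 2.94% and 2.0%). These were Pfkfb3, which makes the allosteric activator of glycolysis (−0.37), and Egln1, an oxygen sensor (−0.37). Without WT 4b, 4 were lower, with a median of −0.17.

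**Figure D5:**
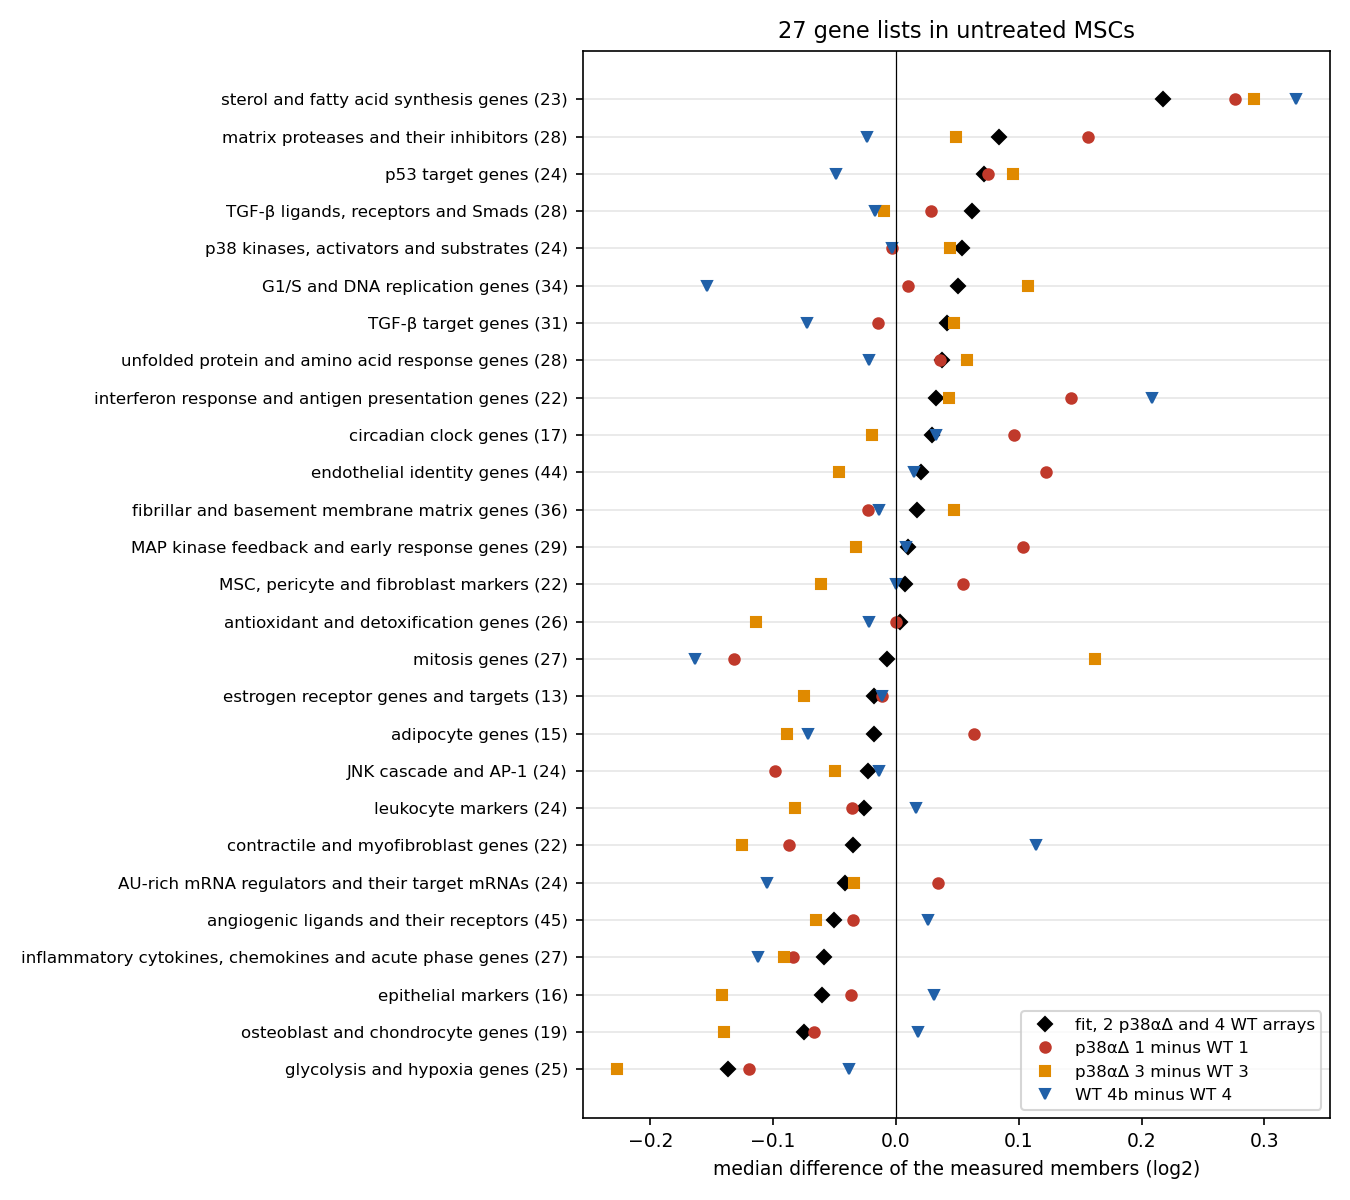
Median difference (horizontal axis, log2) of the measured members of 27 gene lists, their number in brackets, in the fit (black), in pair 1 (red), in pair 3 (orange) and between WT arrays 4b and 4 (blue). The list of sterol and fatty acid synthesis genes lies at 0.22 to 0.33 in all 4, and that of mitosis genes at −0.13 in pair 1 and 0.16 in pair 3.

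In the p38 pathway itself, 1 of 24 measured genes was higher at an unadjusted p under 0.05 and none lower (median 0.05, with 2.94% of all genes higher and 2.0% lower). This was Rps6ka5 (MSK1), a nuclear kinase downstream of p38 (0.26). Its untreated values of 3.19 to 3.89 lay below the median of all genes, 4.80. Group means differed by 0.21 for the probeset used and by −0.044 and 0.058 for its other 2. Mapk12, the gene of p38γ, was at 7.26, 7.09, 7.19 and 6.55 in WT 1, 3, 4 and 4b and 6.74 and 6.61 in p38α∆ 1 and 3. It was lower in both pairs (−0.53 and −0.48), and WT 4b again lay with p38α∆ (difference −0.34, SE 0.19, adjusted p = 0.969, and −0.46 without WT 4b). Mapk14 differed by −0.12 (SE 0.19), Mapk13 (p38δ) by −0.10, Mapkapk2, the gene of the kinase MK2, by −0.10 and Map3k7 (TAK1), which activates p38 and JNK, by 0.22 (SE 0.18). Of the 5 probesets of Map3k7, 3 shared that sign, and group means of the brightest differed by −0.18. In the JNK cascade and AP-1, 2 of 24 were lower, Junb and Fos, and none higher. Mapk8 (JNK1) differed by 0.21 (SE 0.21), Mapk9 (JNK2) by 0.015 and Jun by −0.020. The value of Mapk8 was −0.01 in pair 1 and 0.51 in pair 3, and group means of its brightest probeset differed by 0.11. Of 29 feedback and early response genes 1 was higher (Dusp16, 0.45) and 1 lower (Dusp7, −0.24). The AU-rich mRNA regulators and their targets had 1 higher (Plau) and 2 lower (Ccl2 and Ccl7) of 24.

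None of 28 measured TGF-β ligands, receptors and Smads had an unadjusted p under 0.05 (median 0.06, with 2.94% of all genes higher and 2.0% lower). The ligand genes Tgfb1, Tgfb2 and Tgfb3 differed by −0.022, 0.097 and −0.039, the receptor genes Tgfbr1 and Acvrl1 by 0.29 (SE 0.40) and −0.21 (SE 0.11), and the signal transducers Smad2, Smad3 and Smad4 by 0.072, −0.12 and 0.19. The inhibitory Smad7 differed by −0.24 (SE 0.11). Of 31 TGF-β target genes 3 were higher, Ccn2, Id2 (0.52) and Acta2 (0.41), and 2 lower, Junb and Plod2 (−0.32). Id2 differed by 0.20 in pair 1 and 1.02 in pair 3, and group means of its other probesets by 0.14 and −0.20. The 2 probesets of Acta2, the smooth muscle actin, did not point the same way. The one used had untreated values of 3.43 to 4.48, below the median of all genes, 4.80. Group means of the brighter one differed by −0.019. Of 22 contractile genes 1 was higher (Acta2) and 1 lower (Synpo2, −0.29), and of 36 matrix genes 2 were higher (Tnc, 0.39, and Lamc1, 0.24) and 1 lower. This was Col6a2, a chain of type VI collagen, at 10.22, 10.18, 10.20 and 9.75 in WT and 9.85 and 9.54 in p38α∆ (difference −0.45, SE 0.13), with WT 4b between the p38α∆ arrays. Fn1, fibronectin, differed by −0.090.

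Of 45 angiogenic ligands and receptors, 3 were higher and 2 lower at an unadjusted p under 0.05 (median −0.05, with 2.94% of all genes higher and 2.0% lower). The higher ones were Flt4 (VEGFR3), the lymphatic VEGF receptor (0.57), its partner Nrp2 (0.32) and the Notch ligand Jag1 (0.32). A brighter probeset of Jag1 differed by −0.19 in pair 1 and −0.033 in pair 3, and in group means by 0.061. Angpt4, a ligand of the Tie2 receptor, was at 6.89, 6.89, 6.94 and 6.03 in WT 1, 3, 4 and 4b and 5.98 and 6.22 in p38α∆ 1 and 3. WT 4b lay between the p38α∆ arrays, and the other 3 WT arrays stood 0.66 or more above both. The difference was −0.66 (SE 0.21, adjusted p = 0.969), and without WT 4b Angpt4 fell by 0.80 (SE 0.10, adjusted p = 0.0391). Vegfd was the other lower one (−0.21). The vascular growth factor Vegfa differed by −0.14 (SE 0.17), Angpt1 by −0.15 and Fgf2 by −0.024, the last with −0.53 in pair 1 and 0.26 in pair 3. Of 44 endothelial identity genes 3 were higher, Flt4, Calcrl (0.39) and Rhoj (0.28), and none lower (median 0.02). Untreated values of Calcrl were 2.96 to 3.93, below the median of all genes, 4.80. Group means of its other probeset differed by 0.096. The defining genes Pecam1 (0.11), Cdh5 (0.016), Tie1 (−0.12) and Flt1 (0.14), and Mcam (0.17), a marker of MSCs and pericytes, had adjusted p values of 0.969 or more in limma.

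In the remaining lists counts stayed small, beside 2.94% higher and 2.0% lower of all genes at an unadjusted p under 0.05. MSC, pericyte and fibroblast markers (22 measured) and epithelial markers (16) had none at an unadjusted p under 0.05, and Pdgfrb differed by −0.16 (SE 0.18). Leukocyte markers had 2 lower of 24, Mpo (−0.30) and Itgb2, the latter at 6.61, 6.90, 6.60 and 6.63 in WT and 6.25 and 6.47 in p38α∆. The median level of the leukocyte list was 3.47 to 3.88 in the WT arrays and 3.91 and 3.48 in p38α∆, and Ptprc was at 2.72 and 2.81. Adipocyte genes had 1 higher of 15, Lpl, the lipoprotein lipase (0.39), and 1 lower, Dgat2 (−0.43), and estrogen receptor genes and targets 1 higher (Ccnd1, 0.42) and 2 lower of 13 (Xbp1, −0.33, and Pgr, the progesterone receptor, −0.35). Mitosis genes had 1 higher of 27, Ccnb2 (0.33), with medians of −0.13 in pair 1 and 0.16 in pair 3, and G1/S genes 2 higher of 34, Ccnd1, a cyclin, and Cdkn1b (0.23). p53 targets had 1 higher (Aen, 0.26) and 1 lower (Phlda3, −0.27) of 24, and Cdkn1a, the gene of p21, differed by 0.12 (SE 0.14). Of 17 circadian genes Nr1d2 (0.48) was higher and Npas2 (−0.33) lower, of 26 antioxidant genes Gsta4 (0.41) higher and Srxn1 (−0.32) lower, and of 28 unfolded protein response genes Xbp1 lower.

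The genes that passed between the genotypes with TGF-β were then looked at without it. No array is shared by the 2 comparisons, but they come from 1 fit and share the numbers. The set of 65 itself was unstable: 5 to 23 genes passed with TGF-β when any 1 of the 6 TGF-β-treated arrays was left out, 12 without WT 3, 41 without p38α∆ 1 and likewise without p38α∆ 3, and 5 without the number as a block. Of 54 genes higher with TGF-β, 43 had an untreated difference above 0 (all genes, 49.8%), with a median of 0.18 against 0.74 with TGF-β. The median was 0.15 in pair 1 and 0.21 in pair 3, 19 were higher at an unadjusted p under 0.05 and 1 lower (all genes, 2.94% and 2.0%). The largest were Fbln7 (0.60 untreated and 0.94 with TGF-β), Ccn2 (0.59 and 1.74), Xaf1, an interferon-induced regulator of apoptosis (0.52 and 1.12), and Gnb4, a G protein subunit (0.51 and 0.93). Of the 54 genes, 42 were also higher in WT 4b than in WT 4 (all genes, 48.1%). Of 11 genes lower with TGF-β, 5 had an untreated difference below 0 (median 0.04), and 3 were lower at an unadjusted p under 0.05, Ccn5 (−0.65 untreated and −0.98 with TGF-β), Kirrel3, an adhesion molecule (−0.46 and −0.85), and Rtl3 (−0.23 and −0.49). All 11 were lower in WT 4b than in WT 4 (median −0.31), as were 51.9% of all genes.

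Of the 54 genes, Fos was the one with an unadjusted p under 0.05 in the opposite direction. Fos, an AP-1 subunit, was at 5.18, 5.81, 5.59 and 5.40 in WT 1, 3, 4 and 4b and 4.49 and 5.57 in p38α∆ 1 and 3. Its untreated difference was −0.43 (SE 0.20), lower in both pairs, while with TGF-β it was 1.22. Other immediate early genes of the 54, picked once the values were known, lay on both sides of 0 untreated, with Jun at −0.020, Egr1 at −0.20, Fosb at 0.11 and Ier2 at 0.16, and Egr1 had opposite signs in pair 1 (0.062) and pair 3 (−0.23). The difference between the 2 genotype differences was 1.66 for Fos and 0.91 for Jun, with an adjusted p = 0.456 for both in limma's interaction contrast. That contrast had an unadjusted p under 0.05 in 43 of the 54 genes and 8 of the 11, against 919 of all 17097. The TGF-β-treated values chose these genes and also enter the contrast, so these counts are a description.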

How the data were processed

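RNA of MSCs had been amplified from small amounts and hybridized to 12 Affymetrix MG-430 PM arrays. The deposited values are log2 values that the authors made with RMA (background correction, quantile normalization and summary per probeset), which forces the arrays to 1 distribution and compresses changes of dim genes. The array annotation names 28898 probesets with 1 gene symbol, 551 with several and 15588 with none. 64 control probesets were left out, and where a gene had several probesets (7180 genes) the one that varied most over the arrays, by median absolute deviation, stood for it. Groups come from the titles.

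The untreated contrast was tested in limma 3.58.1 (R 4.3.3) with all 12 arrays, the title number as a random block (estimated correlation 0.5217; 4b counted with 4) and Benjamini-Hochberg adjustment over all genes. The study's methods adjust for scanning batch, which is not given in the sources used here, so the number stands in for it. Alternatives were other treatments of the number, other probeset choices, normalizations and filters, array weights and leaving out each array. The script was tested on simulated data. Depth does not apply to arrays, whose number limits the precision.

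The comparison, the gene lists and the named genes were chosen with earlier results of these data known. Named were the 12 largest differences in each direction among the genes described above as separated, 32 key genes (2 of them not analysed here), up to 3 members per list at an unadjusted p under 0.01 that moved the same way in both pairs, of the genes that passed with TGF-β the 5 largest in the same direction and those opposed, and some members chosen after their values were seen. Upstream sequences are RefSeq's. Python 3.11.15 with pandas 2.3.3 made the tables.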

Additional observations from a re-analysis of the deposited data

Results flagged for a closer look

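In 19 of the 103 named genes, 1 of the 4 WT arrays lay far from the other 3, by a gap, as a share of the group's range, past Dixon's 95% critical value. Chance flags about 1 group in 20. In 9 of them it was WT 4b. It was low for Ccn5 (gap 0.861 of the range), Yrdc (0.869), Layn (0.903), Fn1 (0.897), Angpt4 (0.945) and Col6a2 (0.898), and high for Oasl2 (0.839), Gnb4 (0.881) and Ifit2 (0.836). In each of the 9 genes the difference of WT 4b from the other WT arrays had the sign of the difference of p38α∆ from WT. In 7 it was WT 1, low for Gpr85 (0.857), Mapk8 (0.994), Tgfbr1 (0.887), Smad4 (0.898) and Firre (0.854) and high for Mapk13 (0.938) and Pdgfrb (0.836). In 3 it was WT 3, high for Itgb2 (0.912), Fgf2 (0.892) and Rhoj (0.923). Over all 17097 genes 2004 were flagged this way, 1751 of them by WT 1, 95 by WT 4b, 84 by WT 3 and 74 by WT 4. What sets WT 4b apart was not tested.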

How the results depend on the processing

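Deviations from the group means of arrays of 1 number had correlations of 0.69 to 0.86 in numbers 1 and 3 but of 0.07 to 0.36 in number 4. Deviations within a group cancel out, and with 2 untreated p38α∆ arrays that of p38α∆ 3 mirrors that of p38α∆ 1. The values of number 3 therefore depend in part on number 1 and cannot show that the number 3 arrays belong together. The numbers are not shown to pair the samples. With the number as a replicate block the count of genes that passed was 0. It stayed at 0 with no replicate block and with the block as a fixed term over all 12 arrays, and was 141 with the block in the untreated arrays alone and 239 in the arrays numbered 1 and 3 alone, the latter chosen after seeing the data. Leaving out 1 array gave 0 to 3, the 3 without WT 4b, and the other settings gave 0. Genes at an unadjusted p under 0.05 numbered 845, against 205 with no replicate block, 3131 with the block in the untreated arrays alone, 2761 in the arrays numbered 1 and 3 alone, 152 in the untreated arrays with no block, 436 of the genes at or above the median level, 241 with array weights (whose estimation did not reach its tolerance) and 1627 without the arrays numbered 1. Without 1 array they were 571 to 1071. The 198 genes past 0.5 the same way in both pairs became 84 with the mean of a gene's probesets, 4 at a difference of 1 and 46 among genes alike between numbers. Of the 65 genes that passed with TGF-β, 73.8% kept their sign untreated. This was 50.0% (2 of 4) with the block as a fixed term, and 50.0% (4 of 8, without the TGF-β-treated WT 1) to 84.0% (63 of 75, without WT 4b) with 1 array left out.

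Of the 103 named genes, 81 kept their direction under each setting run. The sign of the other 22 turned in 52 of their alternatives, and 3 of these genes (Acta2, Jag1 and Dusp7) had an unadjusted p under 0.05. Many of the 103 had been picked from these same values for a direction shared by both pairs, so the 81 are no measure of robustness. With 1 array left out, the range was Cdh5 from −0.040 to 0.071, Fgf2 from −0.33 to 0.29, Hbegf from −0.40 to 0.11, Jun from −0.15 to 0.11, Mapk13 from −0.25 to 0.049, Mapk14 from −0.21 to 0.035, Mapk8 from −0.048 to 0.49, Mapk9 from −0.042 to 0.10, Pdgfrb from −0.47 to 0.14, Pecam1 from −0.069 to 0.29, Smad2 from −0.078 to 0.23, Smad3 from −0.21 to 0.0018, Tgfb1 from −0.21 to 0.16, Tgfb2 from −0.0022 to 0.20, Tgfbr1 from −0.069 to 0.66 and Vegfa from −0.21 to 0.038. With array weights the differences were Mapk13 0.034, Mapk9 −0.025, Tgfb1 0.20, Tgfb2 −0.017, Tgfbr1 −0.026, Smad2 −0.063 and Smad3 0.019, with the brightest probeset Map3k7 −0.13, Acta2 −0.0043, Jag1 −0.011 and Dusp7 0.022, with no replicate block (also in the untreated arrays alone) Mapk9 −0.049 and Tgfb1 0.062, with the block in the untreated arrays alone Mapk9 −0.078, Cdh5 −0.024 and Cdkn1a −0.018, with 4b as its own number Mapk9 −0.0033, with quantile normalization Mapk9 −0.0025, and without the arrays numbered 1 Jun 0.097, Angpt1 0.071, Fgf2 0.37, Pecam1 −0.045 and Cdh5 −0.027. The cause was not tested.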
